A study of Mus musculus with 12 samples.

Results

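The genes described here are 47 genes of T cells, natural killer (NK) cells and immune checkpoints, each taken with 10 kb on either side of its annotated extent. They were chosen by name, and every H3K36ac peak that overlapped such a locus by 1 bp or more was collected from the 6 peak lists. The 47 loci are part of 21887 protein-coding loci built in the same way, and they held 130 of the 109597 peaks in the 6 lists. The members are 10 genes of the T cell receptor with its coreceptors, costimulatory receptors and proximal kinases, and 9 inhibitory receptors and their ligands. Entpd1, an ectoenzyme gene, is counted among these 9. The others are 15 transcription factors, 2 cytokine receptors, 5 effector genes, 3 NK receptors and 3 genes of the CXCR3 chemokine axis.

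The study profiled H3K36ac, acetylation at lysine 36 of histone H3, by chromatin immunoprecipitation and sequencing of mouse liver tumours. All mice had been treated with anti-PD-1, an antibody against an inhibitory receptor of T cells. The groups were labelled LysM-Cre (3 libraries) and Trem2-MKO (3 libraries), and the 6 input samples were not analysed here. LysM-Cre expresses Cre recombinase from the lysozyme M gene, which is active in macrophages, monocytes and neutrophils, and TREM2 is a macrophage receptor that binds lipids. The labels do not spell out the Trem2-MKO alleles or say whether those mice carry the Cre driver, and strain, age, sex, tumour model and dose are among the details not given in the sources used here. Per its design text, the series had 3 mice per genotype, but the labels do not tie each library to a mouse, so the spread between libraries may be partly technical. Whole tumour was used, so T and NK cells were a part of each sample of unknown size. In such material, fewer cells of a type and less of the mark per cell cannot be told apart.

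H3K36ac is found mainly around the promoters of active genes. T cells recognise antigen through a receptor coupled to the CD3 chains and the kinases LCK and ZAP70, and costimulation through CD28 completes activation. Inhibitory receptors such as PD-1, CTLA-4, LAG-3, TIM-3 and TIGIT restrain activated cells, and under lasting antigen exposure factors such as TOX and the NR4A family go with sustained inhibitory receptor expression, while TCF-1 (Tcf7) marks cells that can still self-renew. PD-1 has the ligands PD-L1 (Cd274) and PD-L2 (Pdcd1lg2), which macrophages, dendritic cells and tumour cells can carry.

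Runx3, a factor needed for the cytotoxic T cell fate, had a peak across its annotated transcription start. A peak at Nr4a3 spanned the first base of the gene extent (48045078 on chromosome 4) but ended before the start in the promoter table (48045305). Of 51 promoter entries that RefSeq (GRCm38.p6, the assembly named mm10) gives for 40 of the members, 4 were touched by a peak. Of these, 3 are shown, being the promoters of which a peak covered more than a few bases, as the 250 bases before the start, on the gene's own strand. Capitals mark matches to the motifs searched, on either strand. In Runx3 these are RUNX (TGTGGT, read here as its reverse complement), in Lef1 NFAT (GGAAAA, also reversed), and in Nr4a3 T-box (GGTGTGA, reversed).
Runx3, chr4:135120395-135120644, plus strand: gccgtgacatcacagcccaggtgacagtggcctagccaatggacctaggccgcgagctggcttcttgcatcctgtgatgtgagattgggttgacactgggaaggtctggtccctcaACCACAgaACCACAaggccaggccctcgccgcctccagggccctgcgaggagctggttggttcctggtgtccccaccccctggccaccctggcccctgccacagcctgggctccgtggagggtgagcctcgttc
Lef1, alternative start, chr3:131112541-131112790, plus strand: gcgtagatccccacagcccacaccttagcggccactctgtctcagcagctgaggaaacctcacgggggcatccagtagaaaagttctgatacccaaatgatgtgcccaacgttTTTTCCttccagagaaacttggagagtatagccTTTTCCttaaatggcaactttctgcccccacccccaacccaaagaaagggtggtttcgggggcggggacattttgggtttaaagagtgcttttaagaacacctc
Nr4a3, chr4:48045055-48045304, plus strand: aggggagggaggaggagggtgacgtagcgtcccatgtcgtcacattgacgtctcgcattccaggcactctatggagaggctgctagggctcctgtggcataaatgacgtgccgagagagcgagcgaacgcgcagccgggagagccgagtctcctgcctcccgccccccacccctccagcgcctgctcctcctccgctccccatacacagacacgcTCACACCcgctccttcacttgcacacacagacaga
The Runx3 peak, in Trem2-MKO replicate 1, covered 241 of the 300 promoter bases in the table (250 before the start and 50 after it) and included both RUNX matches, which begin at -134 and -126 from the start. The Lef1 peak of LysM-Cre replicate 3 covered 150 such bases, with 6 of 6 bases of the NFAT match at -137 and 4 of 6 of that at -104. The Nr4a3 peak of LysM-Cre replicate 2 covered 70, and its T-box match, at -35, lay outside the peak. The letters TGTGGT occur in 14.8% of the 21006 protein-coding promoters in the table and in 20 of the 51 member promoters (39.2%). For GGAAAA the shares were 22.2% and 25.5%, and for GGTGTGA 3.64% and 3.92%. The other motifs searched were TCF/LEF (CTTTGA, 14.4% and 13.7%), ETS (CCGGAAG, 11.7% and 5.88%), AP-1 (TGANTCA, 6.99% and 11.8%) and E-box (CACGTG, 7.9% and 5.88%). Windows of one gene can overlap, and a match is a match of letters only.

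The lists held 18262, 29970 and 19981 peaks in LysM-Cre replicates 1 to 3 and 29906, 6840 and 4638 in Trem2-MKO replicates 1 to 3. Trem2-MKO replicates 2 and 3 stand apart: their lists were the shortest, while their median summit held 20 and 23 fragments, against 11 in the other 4 libraries. Their median local background was higher too, at 6.55 and 7.42 fragments, against 2.39 to 2.7 in the other 4. Trem2 itself had 2, 1 and 1 peaks within its locus in LysM-Cre and 0 in each Trem2-MKO library, a pattern of 3 libraries against 0 seen at 1.39% of protein-coding loci. The peak lists of whole tumour cannot check a deletion made in some of its cells. Peaks were found at 5 of 10 hepatocyte marker loci, 7 of 10 macrophage, 3 of 6 B cell, 4 of 5 neutrophil, 5 of 5 endothelial and 5 of 5 stellate cell marker loci, and at 7 of 10 T and NK marker loci, which are a subset of the members; the 3 CD3 chain genes were without one. Over all protein-coding loci the share was 71.7%. Beside loci of like length, peaks numbered 30 against 18.6 for macrophage, 25 against 41.5 for B cell and 12 against 11.6 for T and NK markers. They numbered 10 against 5.54 for neutrophil, 13 against 10.1 for stellate cell and 21 against 23.4 for endothelial markers, and were equal at 20 for hepatocyte markers. Of 10 genes that all cells use, 4 loci held a peak (6 peaks against 11.5) and none had one at a gene end, so absence of a peak is not read here as absence of the mark.

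Member loci held peaks about as often as other loci of their length in both genotypes. In LysM-Cre replicates 1 to 3, 13, 21 and 14 of the 47 loci had a peak (27.7%, 44.7% and 29.8%), and in all protein-coding loci the share was 28.6%, 39.1% and 30.4%. In Trem2-MKO replicates 1 to 3, 21, 9 and 6 had one (44.7%, 19.1% and 12.8%), against 40.6%, 14.1% and 8.16% of all protein-coding loci. Other protein-coding loci of like length, weighted to the members over 20 length classes, gave 28.5%, 39.0% and 30.2% in LysM-Cre and 40.7%, 13.7% and 7.59% in Trem2-MKO. Each of these values lies inside the exact (Clopper-Pearson) 95% interval of the members' share, such as 30.2% to 59.9% in LysM-Cre replicate 2 and 4.83% to 25.7% in Trem2-MKO replicate 3, which covers counting error only. The members' excess was 3.16 ± 3.01 percentage points (SD over 6 libraries), and it was positive in 4 of 6. Between genotypes, the share was 34.0% ± 9.27 in LysM-Cre and 25.5% ± 16.9 in Trem2-MKO (SD, n = 3), a difference of -8.51 percentage points that is smaller than the spread in Trem2-MKO. It changed sign, to 10.6, without Trem2-MKO replicates 2 and 3, which leaves 1 Trem2-MKO library.

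Set against loci of like length, the number of peaks at the member loci did not overlap between the genotypes. LysM-Cre replicates 1 to 3 had 18, 29 and 22 member peaks, or 0.837, 0.838 and 0.898 times the number per like-length locus. Trem2-MKO replicates 1 to 3 had 40, 13 and 8 member peaks, or 1.11, 1.57 and 1.80 times that number. The 1.57 and 1.80 are from the libraries that stand apart in list length and in fragments at summits. How often other sets of genes separate in this way was not counted, so the separation is not read as particular to these genes. The means were apart by 0.631 (0.858 ± 0.0347 against 1.49 ± 0.351, SD, n = 3), and no test was made, since the genes were chosen with results known. Counting error alone is wide: the exact Poisson 95% interval ran from 0.775 to 3.54 in Trem2-MKO replicate 3 and from 0.791 to 1.51 in replicate 1, and all 6 intervals include 1. The length classes matched the members incompletely, since the mean member locus was 60.7 kb and that of the comparison loci 65.7 kb (92.4%). With the 500 loci nearest in length to each member, whose mean was 59.8 kb, the ratios were 0.92, 0.92 and 0.99 in LysM-Cre and 1.2, 1.76 and 2.11 in Trem2-MKO. So the LysM-Cre ratios came close to 1 under the closer match, and the genotypes still did not overlap. They did overlap in 3 other settings. With lists of equal size, LysM-Cre ratios ran from 0.7 to 1.12 and Trem2-MKO ratios from 1.08 to 1.8. A −log10 p limit of 5 gave 0.79 to 0.89 for LysM-Cre against 0.79 to 1.37 for Trem2-MKO, and a −log10 q limit of 2 gave 0.48 to 1.23 against 0 to 0.96. Without the 3 longest member loci the nearest libraries were at 1.22 and 1.24. Without Trem2-MKO replicates 2 and 3 the difference fell from 0.631 to 0.249. With list length made equal the difference was 0.574; the part of fragment depth was not tested.

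**Figure D1:**
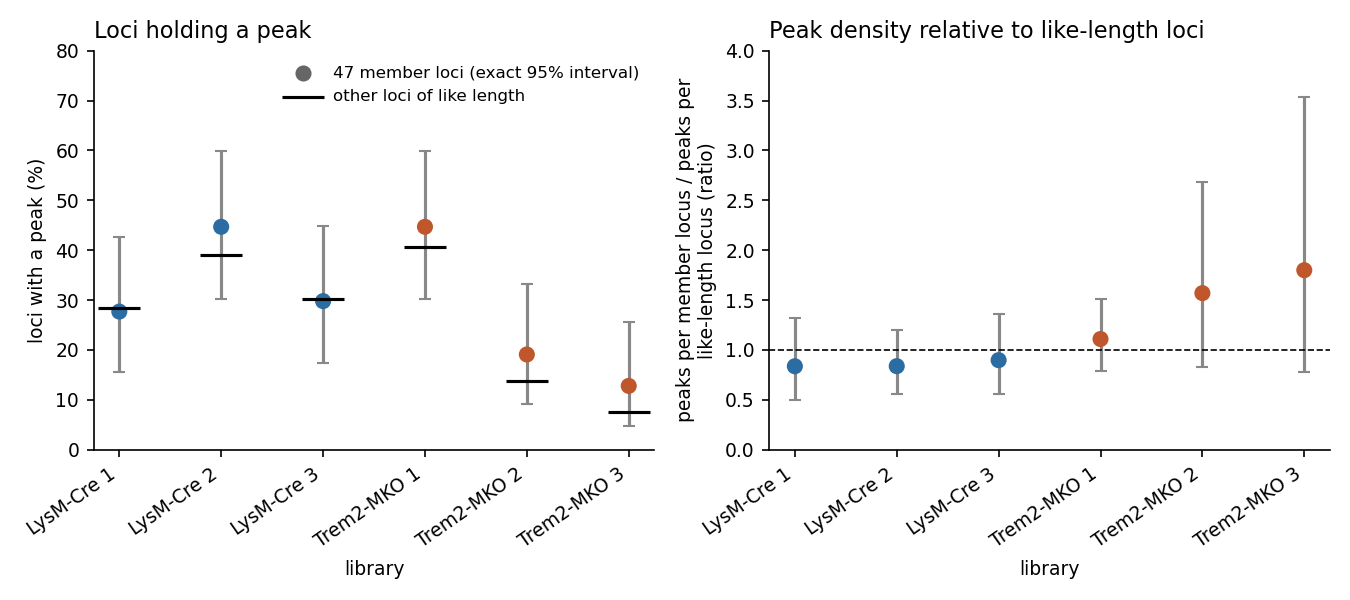
Left, percent of the 47 member loci holding a peak in each library (points, exact 95% interval) beside other loci of like length (black lines); right, peaks per member locus divided by peaks per like-length locus (points, exact Poisson 95% interval), with a dashed line at 1. The 3 LysM-Cre ratios lie between 0.837 and 0.898 and the 3 Trem2-MKO ratios between 1.11 and 1.80, with intervals that all include 1.

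Over the 6 libraries, 37 of the 47 loci held a peak (78.7%), against 72.7% of loci of like length and 71.7% of all protein-coding loci. The 10 without a peak were Cd3d, Cd3e, Cd3g, Zap70, Lag3, Klrk1, Ifng, Gzma, Cxcl10 and Cxcr3. Of these, 9 were short, at 22.3 to 33.6 kb, and Zap70, at 41.0 kb, was near the members' median of 40.9 kb. Only Entpd1 had a peak in every library, while 13 loci had one in a single library and 13 in 2.

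**Figure D2:**
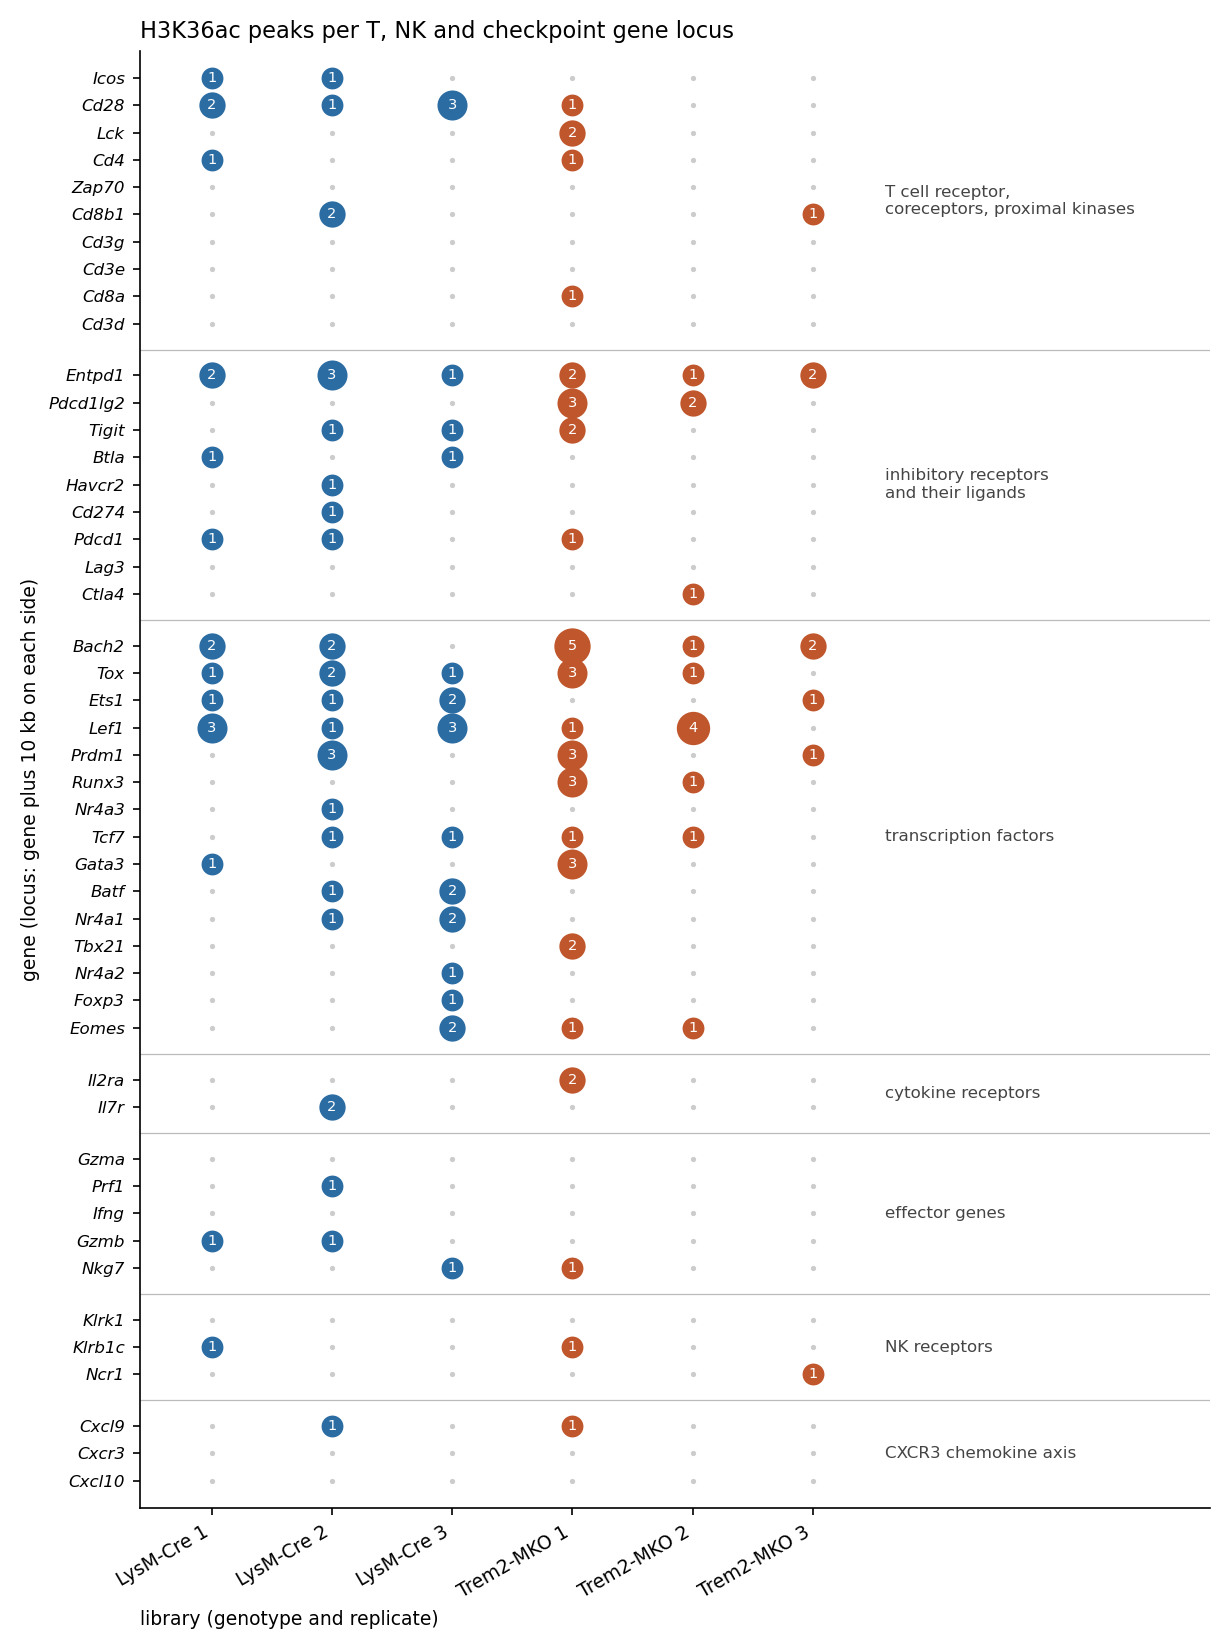
Number of H3K36ac peaks (digit and dot size) at each member locus (rows, by role and then by length) in each library (columns, blue LysM-Cre and orange Trem2-MKO); grey points mark 0. The 15 transcription factor loci all hold a peak in some library, and the CD3 loci hold none. In their length classes, 1.01% to 37.8% of other loci lack a peak for the former and 34.8% to 44.9% for the latter.

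Genes of the T cell receptor and its partners carried about as many peaks as loci of their length. In the group of T cell receptor, coreceptor, costimulatory and kinase genes, 6 of 10 loci had a peak and 17 peaks were counted, against 15.4 at loci of like length. The 3 CD3 chain genes, which make up the signalling part of the receptor, and Zap70 had none, as was the case at 27.4% to 44.9% of the loci in their length classes. Cd28, the costimulatory receptor gene, had the most, with 2, 1 and 3 peaks in LysM-Cre and 1, 0 and 0 in Trem2-MKO. Every LysM-Cre library had one there, although the groups overlap at 1 peak (exact two-sided permutation p = 0.2, adjusted p = 1.0 over all loci). Cd28 held 7 of the 17 peaks, against 1.93 at loci of its length, so the count of the group rests in part on this gene. These 7 Cd28 peaks lay at 7 separate places. Icos, a related costimulatory receptor, had 1, 1 and 0 peaks in LysM-Cre and none in Trem2-MKO, of 4.10-fold and 4.05-fold over background. Lck had 2 peaks, both in Trem2-MKO replicate 1. The weaker covered the region just inside its start, with its summit 283 bases after it (2.10-fold), and the stronger (3.40-fold) lay in the downstream flank within 1 kb of Hdac1, a histone deacetylase gene, so its assignment to Lck is uncertain. Of the coreceptor genes, Cd4 had 1 peak in each genotype, Cd8a had 1 in Trem2-MKO replicate 1 with 40 fragments over a background of 16.44, and Cd8b1 had 2 in LysM-Cre replicate 2 and 1 in Trem2-MKO replicate 3.

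The group of inhibitory receptors and their ligands, with Entpd1, had 28 peaks, against 22.5 at loci of like length, and 8 of 9 loci were marked. Entpd1, which is neither a receptor of this kind nor a ligand, held 11 of the 28, against 7.13 at loci of its length. Each genotype had 14 of the 28, where loci of like length gave 13.9 in LysM-Cre and 8.62 in Trem2-MKO. Entpd1, which encodes the ATP-hydrolysing ectoenzyme CD39, had 2, 3 and 1 peaks in LysM-Cre and 2, 1 and 2 in Trem2-MKO, at 11 separate places over its 129 kb. CD39 is also carried by endothelial and myeloid cells. Pdcd1lg2, the PD-L2 gene, had no peak in LysM-Cre and 3, 2 and 0 in Trem2-MKO. Its neighbour Cd274, the PD-L1 gene, had a single peak, in LysM-Cre replicate 2, at 2.5-fold in the downstream flank. Pdcd1, the target of the antibody given to all mice, had 1, 1 and 0 peaks in LysM-Cre, both in the downstream flank, and 1, 0 and 0 in Trem2-MKO, within the gene. None of these lay at a Pdcd1 gene end. Tigit had 0, 1 and 1 against 2, 0 and 0 peaks, Btla had 1, 0 and 1 against none, Havcr2 (TIM-3) had 1 in LysM-Cre replicate 2, and Ctla4 had 1 in Trem2-MKO replicate 2, the member peak of highest fold in that library (3.15). Lag3 had none.

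All 15 transcription factor loci held a peak in some library, and in their length classes 1.01% to 37.8% of loci held none. They had 71 peaks in all against 76.2 at loci of like length. The split between the genotypes was 36 to 35, where loci of like length gave 47.5 and 28.7. For the longest loci these expected numbers exceed those of the closer length match. The length class gave 18.7 peaks each for Bach2 and Tox, and the 500 loci nearest in length gave 15.2 and 13.6. A shortfall of this group is therefore not read from the expected numbers. Lef1, a partner of TCF-1 in naive and memory T cells, had 3, 1 and 3 peaks in LysM-Cre and 1, 4 and 0 in Trem2-MKO. Bach2, a repressor that holds T cells in a resting state, had 2, 2 and 0 against 5, 1 and 2, and Tox had 1, 2 and 1 against 3, 1 and 0. With Entpd1, Bach2 and Tox are the longest loci, and these 3 hold 31 peaks, or 23.8% of the peaks in 29.5% of the length. Prdm1, whose product BLIMP-1 drives terminal differentiation, had 0, 3 and 0 against 3, 0 and 1 peaks. Ets1 had 1, 1 and 2 against 0, 0 and 1 (exact two-sided permutation p = 0.3).

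Runx3 had no peak in LysM-Cre and 3, 1 and 0 in Trem2-MKO. Its start peak (chr4:135120454-135120855) was the strongest member peak of its library, with 18 fragments over a background of 3.07, a fold of 4.67 and a −log10 q of 4.06, and its summit lay 36 bases after the start. It was found in 1 library only. Tbx21, the T-bet gene, had 2 peaks and Gata3 3 in the same library, and Gata3 also had 1 in LysM-Cre replicate 1. Tcf7 had 0, 1 and 1 against 1, 1 and 0, and Eomes 0, 0 and 2 against 1, 1 and 0. Batf and Nr4a1 each had 0, 1 and 2 peaks in LysM-Cre, Nr4a2 had 1 in LysM-Cre replicate 3 and Nr4a3 1 in LysM-Cre replicate 2, and none of these had one in Trem2-MKO. Foxp3, the regulatory T cell factor, had 1 peak in LysM-Cre replicate 3, in the upstream flank within 1 kb of Ppp1r3f.

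The remaining groups were sparse. Il2ra, the high-affinity interleukin-2 receptor chain gene, had 2 peaks in Trem2-MKO replicate 1, and Il7r, the receptor for a survival cytokine of naive and memory T cells, had 2 in LysM-Cre replicate 2. The 5 cytotoxic effector genes had 5 peaks against 4.53 at loci of like length. Gzmb, for granzyme B, had 1, 1 and 0 in LysM-Cre, both in the downstream flank, Prf1 (perforin) had 1 in LysM-Cre replicate 2, and Nkg7 had 1 in LysM-Cre replicate 3 and 1 in Trem2-MKO replicate 1. The 3 NK receptor loci had 3 peaks, at Klrb1c (1 in each genotype) and Ncr1 (1 in Trem2-MKO replicate 3), against 3.71. Cxcl9, a chemokine that draws CXCR3-bearing T cells, had 1 peak in LysM-Cre replicate 2 and 1 in Trem2-MKO replicate 1, and Cxcl10 and the receptor gene Cxcr3 had none. Counts this small cannot show a difference from loci of their length.

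No member locus had a peak in all libraries of one genotype and none of the other. The pattern of LysM-Cre alone was found at 1.39% of protein-coding loci and that of Trem2-MKO alone at 0.101%. By peaks per locus, every LysM-Cre library lay above every Trem2-MKO library at 0 members (1.91% of all loci), and the reverse held at 0 (0.105%). With counts divided by the library's like-length mean, 1 member was higher throughout in LysM-Cre (Cd28, 2.95% of all loci) and 1 in Trem2-MKO (Bach2, 0.498%). With 3 libraries against 3 the exact permutation test cannot go below p = 0.1, which 2.01% of all loci and 0 members reached. Peaks of both genotypes were found at 17 member loci, of LysM-Cre alone at 12 and of Trem2-MKO alone at 8 (36.2%, 25.5% and 17.0%). Among all protein-coding loci these shares were 35.4%, 24.3% and 12.1%, and at loci of like length 35.3%, 25.2% and 12.3%. Trem2-MKO replicate 1 held 40 of the 61 Trem2-MKO member peaks, so the Trem2-MKO values of single loci rest largely on it.

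Member peaks were spread over gene bodies and flanks much as at other loci. Of the 130, 83 were in gene bodies (63.8%), which made up 63.8% of the member loci and held 67.2% of peaks at loci of like length. The flanks held 30 (23.1%, against 25.6% at loci of like length), and 17 touched a window of 1 kb on either side of an annotated gene end (13.1%). These windows made up 6.56% of the member loci, and they held 7.24% of the peaks of loci of like length. Per library, 2, 5 and 3 member peaks in LysM-Cre and 5, 2 and 0 in Trem2-MKO lay at a gene end. The share exceeded that of like-length loci by 4.08 ± 5.97 percentage points (SD over 6 libraries), which is less than the spread, and it turned negative (-2.06) among peaks with a −log10 p of 5 or more. Gene-end peaks were found at 14 members (29.8%), against 17.0% of genes of like length and 16.6% of all protein-coding genes, and in 2 or more libraries at Cd28, Eomes and Tcf7 (6.38%, against 2.17%). The 2 Tcf7 peaks were at opposite ends of the gene, that of LysM-Cre replicate 3 (3.47-fold, −log10 q of 2.79) outside the start side and that of LysM-Cre replicate 2 (2.97-fold) at the 3′ end, within 1 kb of Skp1.

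Where the strand was known, 9 gene-end peaks were at the 3′ end and 5 at the start. Summits within 1 kb of an annotated start were counted 6 times: at Runx3, Lck, Nr4a3, an alternative start of Lef1, and the main and an alternative start of Entpd1. The peak at the main Entpd1 start also lay within 1 kb of Tctn3, so its assignment is uncertain. Away from gene ends, so is that of single peaks of Tigit, Nkg7 and Nr4a1, within 1 kb of Zbtb20, Lim2 and Atg101. The Nr4a3 peak was 3.23-fold, with its summit at -469 from the start, and the Lef1 peak 1.94-fold, with its summit at -414 and 49 fragments over 24.75, the deepest member summit. At 3′ ends lay peaks of Btla (3.22-fold), Cxcl9 (3.51), Nkg7 (3.25), Il2ra (3.33), Pdcd1lg2 (2.77), Lef1 (2.49), Eomes (2.98 and 2.76) and Tcf7. The strand of 7 members, among them Cd28 and Cd8b1, was not used here.

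**Figure D3:**
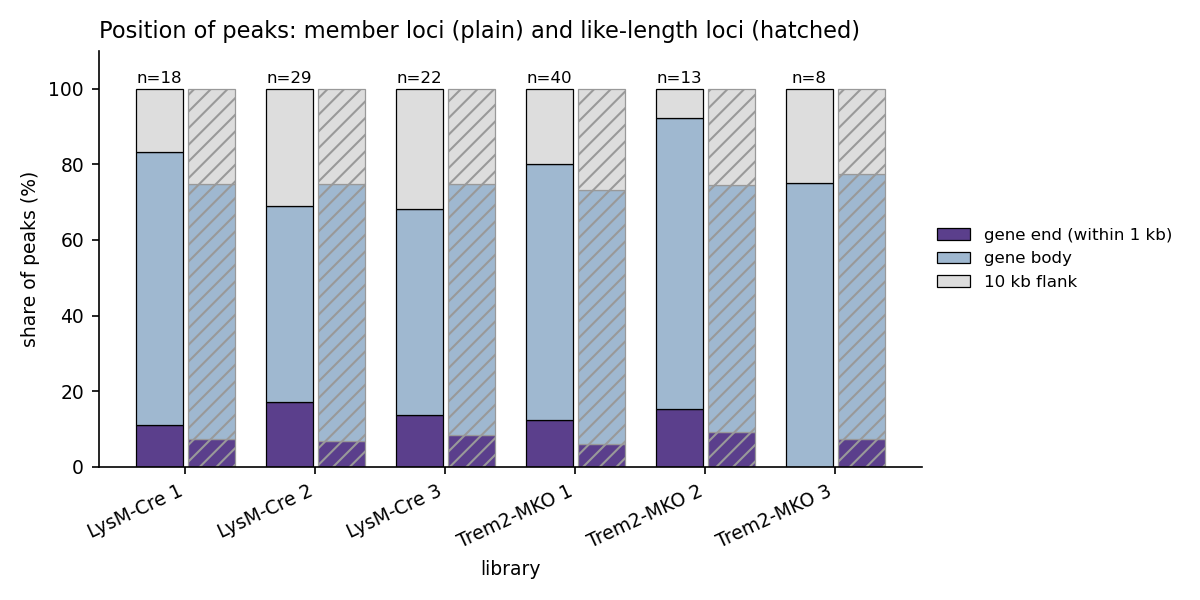
Share of peaks at gene ends (within 1 kb), in gene bodies and in the 10 kb flanks for member loci (plain bars, with the number of peaks) and like-length loci (hatched bars), in each library. Gene-end shares of the members are above those of like-length loci in 5 of 6 libraries, and Trem2-MKO replicate 3 has none.

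Few places were marked in more than 1 tumour library. The 130 peaks formed 122 separate regions, of which 116 came from 1 library and 6 (4.92%) from 2 or more, against 4.26% of regions in all protein-coding loci. Among peaks with a −log10 p of 5 or more, 1 member region was shared. The region found in the most libraries of one genotype lay inside Ets1, a factor of lymphocytes and endothelium (chr9:32667683-32668418). LysM-Cre replicates 1 to 3 had peaks of 3.80-fold, 4.32-fold and 2.84-fold there, and no Trem2-MKO library had one. Of the regions in protein-coding loci, 28 of 51740 (0.0541%) had this pattern and 0.0232% the reverse. The 3 peaks shared 18 bp, and their summits spread over 383 bp. The region is a single place among 122, picked out by its pattern, so it is a description.

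The other region in 3 libraries began just past the 3′ end of Eomes, a factor of NK and memory CD8 T cells (chr9:118486386-118487998). It joined peaks of LysM-Cre replicate 3 (2.98-fold), Trem2-MKO replicate 2 (2.76) and Trem2-MKO replicate 1 (3.62), of which the first and last did not overlap each other. The other 4 regions each had 2 libraries. In Nr4a1 these were LysM-Cre replicates 2 (2.96-fold) and 3 (3.38), with summits 10 bp apart. In Pdcd1lg2 they were Trem2-MKO replicates 1 (2.63) and 2 (2.33), with summits 81 bp apart. In Gata3 they were LysM-Cre replicate 1 (4.10) and Trem2-MKO replicate 1 (3.33), 25 bp apart, and in Lef1 LysM-Cre replicate 1 (2.87) and Trem2-MKO replicate 2 (2.79), 91 bp apart. All 4 lay inside the genes.

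**Figure D4:**
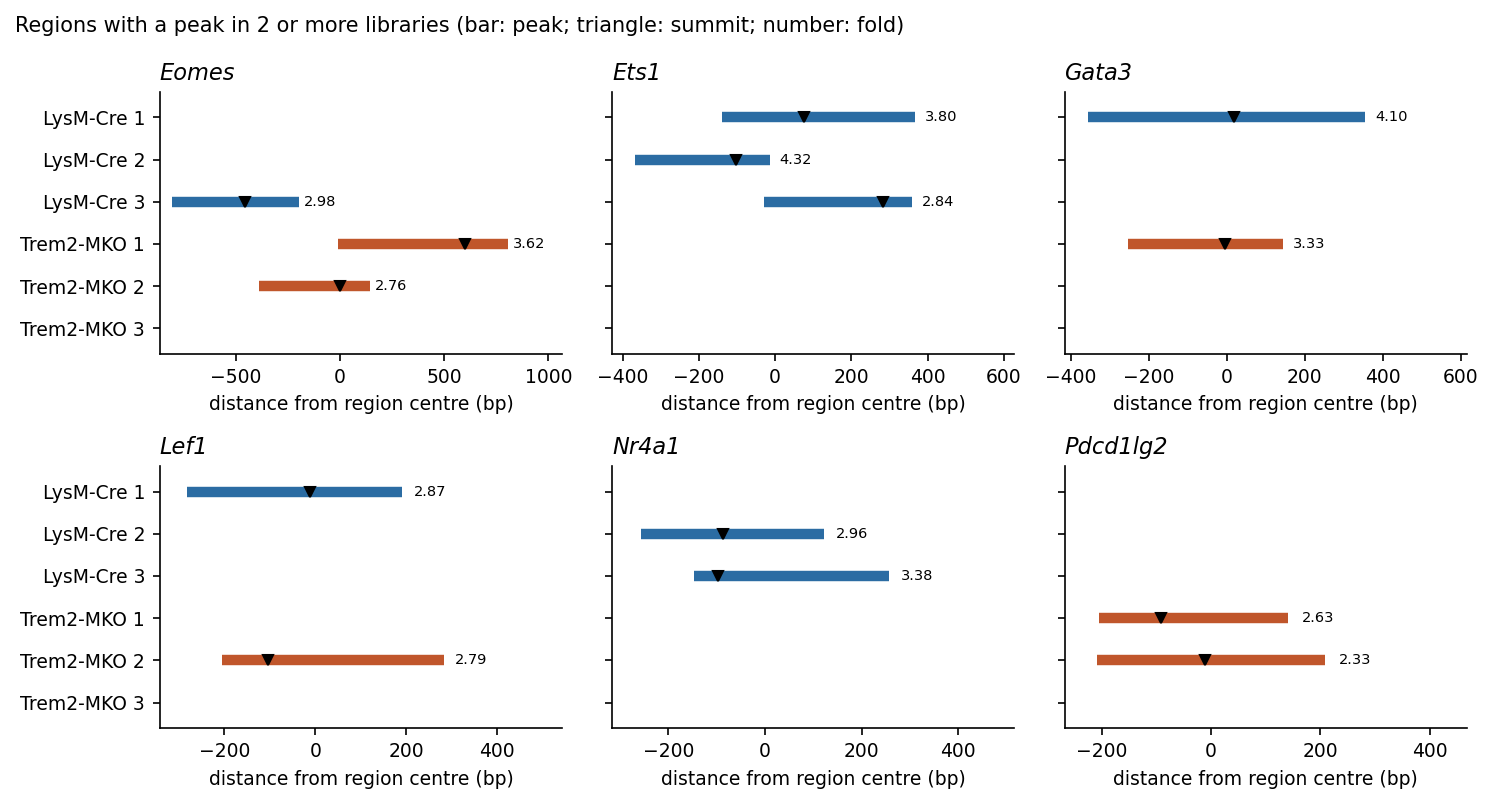
Peaks (bars) and summits (triangles) of the 6 regions marked in 2 or more libraries, as distance from the centre of each region in bp, with the fold beside each bar. The Ets1 region has peaks in the 3 LysM-Cre libraries only, and the outer peaks of the Eomes region do not overlap.

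Member peaks were as weak as the rest of their lists. The median fold over the local background was 3.22, 3.07 and 3.21 in LysM-Cre replicates 1 to 3 and 2.94, 2.59 and 2.51 in Trem2-MKO, against 3.22, 3.01 and 3.25 and 3.05, 2.63 and 2.68 over all peaks of each list. Fragments at a member summit ranged from 7 to 49, and since the DNA had been amplified these need not be independent molecules. A −log10 q of 2 or more was reached by 17 member peaks (13.1%), against 16.2% of peaks in protein-coding loci. They came from 13 genes and numbered 4, 5 and 2 in LysM-Cre and 6, 0 and 0 in Trem2-MKO. Besides peaks already given, they included the strongest member peak of LysM-Cre replicate 1, in Entpd1 (4.30-fold), that of LysM-Cre replicate 3, in the upstream flank of Eomes (4.72-fold, the highest of all), and peaks in Lef1 (4.26), Bach2 (4.10, 3.78 and 4.16), Il7r (3.78) and Il2ra (3.83). The strongest of Trem2-MKO replicate 3 lay in Bach2 (3.26-fold).

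**Figure D5:**
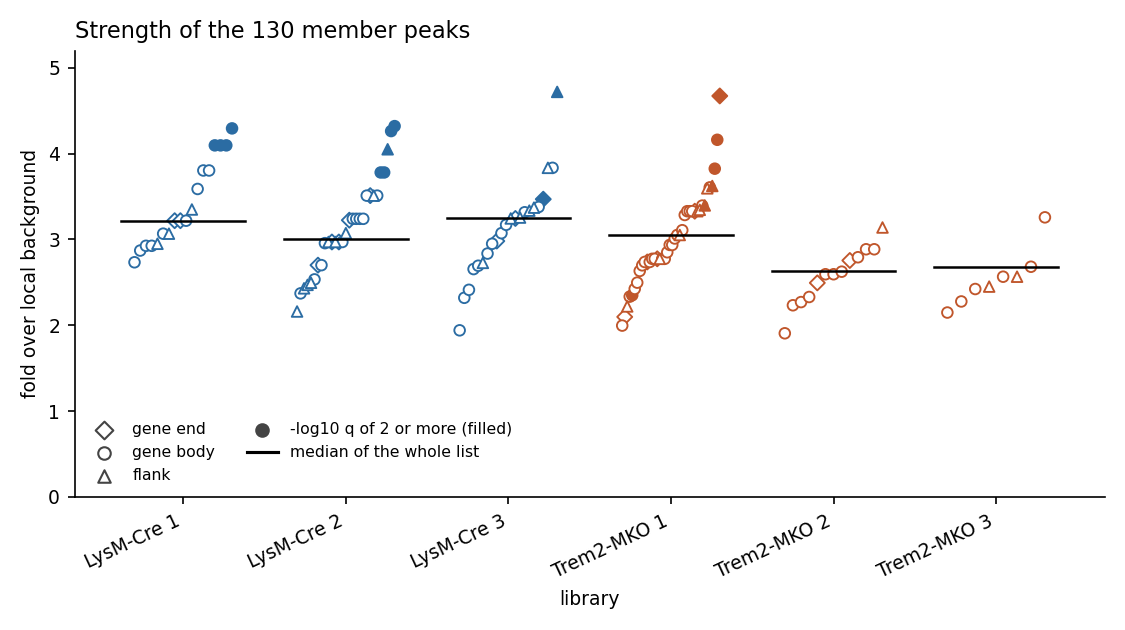
Fold over local background of the 130 member peaks, by library, with symbols for position, filled where the −log10 q is 2 or more, and a black line at the median of the whole list. Filled symbols number 17 and none is in Trem2-MKO replicates 2 or 3.

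With the 6 libraries pooled, loci of related genes of the same cells were marked about as often (82.5% against 78.7% of members). Of 64 other T cell, NK cell and checkpoint genes, 63 were found in the table. Their loci held 189 peaks against 171 at loci of like length, 52 of the 63 loci were marked, and none had 3 libraries of one genotype against 0 of the other. By library, 25, 29 and 25 of the 63 were marked in LysM-Cre and 28, 14 and 4 in Trem2-MKO. The members had 13, 21 and 14 of 47 in LysM-Cre and 21, 9 and 6 in Trem2-MKO. Both sets had the most marked loci in LysM-Cre replicate 2 and Trem2-MKO replicate 1, and the fewest in Trem2-MKO replicates 2 and 3. The same held for all protein-coding loci, and these counts are not matched for length. Gene-end peaks were found at 6 of them (9.52%), beside 29.8% of the members and 16.6% of all genes. Among those with gene-end peaks in 2 libraries were Lcp2, an adaptor of receptor signalling, and S1pr1, which governs exit from lymph nodes. Both had them in LysM-Cre only. Gene-end peaks in 2 or more libraries were found at 2.17% of all genes, and the share in LysM-Cre alone was not counted. Over the whole locus, Lcp2 had 2, 2 and 1 peaks in LysM-Cre and 1, 0 and 0 in Trem2-MKO. S1pr1 had 1, 1 and 0 against 2, 0 and 0.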

How the data were processed

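H3K36ac peaks were analysed in 6 liver tumour libraries, 3 per genotype. Per the labels' protocols, tumour was ground frozen, formaldehyde-fixed and sheared, and the precipitated DNA underwent whole-genome amplification. The submitters' processing notes name Trimmomatic, Bowtie2, SAMtools, Picard, MACS2, deepTools and mm10; versions and the order of steps are not given in sources used here. File names state duplicate removal, a pooled control and a p-value limit of 0.01. Each deposited list gives per peak the authors' integer score, fold enrichment (a ratio to local background), −log10 p-value, −log10 q-value and summit, used only within a list. Fragments at summits were recovered from fold and p (all peaks within 0.005 on the −log10 scale, 99.98% in Trem2-MKO replicate 3); the depth of whole libraries is not known from the lists.

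Gene extents came from RefSeq GRCm38.p6. Loci were compared with other protein-coding loci in 20 length classes, and regions were merged at 1 bp. Single loci were tested by exact two-sided permutation over 20 assignments with Benjamini-Hochberg adjustment over 21887 loci. Python 3.11.15, pandas 2.3.3 and scipy 1.17.1 were used, and the counting was tested on simulated lists. Members and lists were chosen with earlier results of these data known. All 47 members are accounted for; single peaks are given at gene ends, in regions of 2 or more libraries, with the highest fold of a library, or with a −log10 q of 2 or more, and other listed genes only with gene-end peaks in 2 libraries or the pattern of 3 libraries against 0. Not every listed gene that meets this rule is reported here. The match on the 500 loci nearest in length, and values without Trem2-MKO replicates 2 and 3, were added after seeing the data.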

Additional observations from a re-analysis of the deposited data

How the results depend on the processing

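Several values changed when weaker peaks were left out. With lists limited to their strongest 4638 peaks, the difference in marked loci (-8.51) became 2.84 percentage points, the gene-end excess -0.0903 and the shared regions 1, while the excess over like-length loci (1.88) and the ratio difference (0.574) kept their sign. A −log10 p of 5 or more gave a gene-end excess of -2.06, 1 shared region, 1 locus (Lef1) in 3 LysM-Cre libraries alone and a ratio difference of 0.163; marked loci kept their sign (-5.67). A −log10 q of 2 or more gave an excess over like-length loci of -0.481, 0 shared regions and a ratio difference of -0.52; marked loci (-3.55) and gene ends (6.55) kept their sign. Without Trem2-MKO replicates 2 and 3, the difference in marked loci was 10.6, shared regions 3 and the ratio difference 0.249. The cause was not tested.

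Leaving out 1 library at a time gave -18.1 to -2.13 for marked loci, 2.66 to 3.97 for the excess, 2.84 to 6.34 for gene ends, 0.478 to 0.823 for the ratio, 3 to 6 shared regions (3 without Trem2-MKO replicate 2), and 0 to 2 loci for either pattern of 1 genotype alone: Batf and Nr4a1, Btla, or Icos and Gzmb without LysM-Cre replicate 1, 2 or 3, Cd28 without Trem2-MKO replicate 1, and Ets1 (LysM-Cre) and Runx3 and Pdcd1lg2 (Trem2-MKO) without Trem2-MKO replicate 3. The share of all protein-coding loci with such a pattern after a library is left out was not counted. Nor was it counted for the Lef1 pattern at the −log10 p limit, so these patterns are not read as particular to the named genes. Scaled to each list, peak counts separated 2 loci, Cd28 (LysM-Cre higher) and Bach2 (Trem2-MKO higher), as at 2.95% and 0.498% of all loci. Deviations of each library from the mean of its genotype, not the peak counts themselves, were correlated between the genotypes. Pairs of the same replicate number gave -0.275, -0.257 and 0.061, and pairs of different numbers gave -0.293 to 0.32. Counts this sparse cannot settle whether the replicate numbers pair the libraries. With the replicate block, 2 loci (Cd28 and Ets1) reached the smallest sign-flip p of 0.25, as did 2.89% of all loci. The difference in marked loci is -8.51 with the block by construction, with an SD of 22.5 over the same-numbered pairs.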
